A study of Mus musculus with 12 samples.

Results

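The inhibitors of cyclin-dependent kinases (CDKs) and the retinoblastoma family of pocket proteins were followed through adipocyte formation in 3T3-L1 cells with and without knockdown of Fto. The 8 genes were chosen by name from the 55487 genes of the expression table: the Cip/Kip inhibitors Cdkn1a (p21) and Cdkn1b (p27), the Ink4 inhibitors Cdkn2a (p16INK4a and p19ARF), Cdkn2b (p15), Cdkn2c (p18) and Cdkn2d (p19INK4d), and the pocket proteins Rb1 and Rbl1 (p107). Each symbol had 1 row, and all 8 passed the filter on low values that left 15968 genes for testing. 3T3-L1 is a mouse fibroblast line that forms adipocyte-like cells after hormonal induction. Cells with a scrambled control hairpin (shScram) and cells with a hairpin against Fto (shFto), which encodes an m6A demethylase, were collected untreated as preadipocytes (Pre), at mitotic clonal expansion (MCE) and after differentiation (Diff). Each of the 6 groups had 2 RNA-seq libraries. Both lines had received a lentiviral vector that drives the hairpin from a U6 promoter and had been selected with puromycin, and the MCE and Diff cells had been induced with MDI medium (IBMX, dexamethasone and insulin) after confluency. The study lists more than 1 hairpin against Fto and does not name the one in these libraries, so effects of the hairpin and of the loss of Fto cannot be told apart. The labels do not say whether the replicates were separate cultures, and p-values measure only the spread between these libraries.

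Cip/Kip proteins bind complexes of CDKs with cyclins E and A, while Ink4 proteins bind CDK4 and CDK6 and keep them from their D-type cyclins. Active CDKs phosphorylate the pocket proteins, which otherwise hold E2F transcription factors and repress genes of DNA synthesis. Growth-arrested 3T3-L1 preadipocytes re-enter the cell cycle after induction, divide during MCE and leave the cycle again as they become adipocytes, and a fall of p27 and a passing rise of p107 are known parts of this sequence.

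The promoters were searched for E2F sites because Rbl1 is itself a known E2F target and because Cdkn2a has separate promoters for its products. In RefSeq promoter sequences of GRCm38.p6, 300 bases each, most of them before the start site, the E2F motifs TTTCCCGC, TTTCGCGC, TTTGCCGC and TTTGGCGC were searched on both strands, and 744 of 32851 promoters (2.26%) held at least 1 of them. Of the 8 genes, 7 were found in the table, with 10 promoters in all, and 2 promoters held a motif. The motif of Rbl1 began 18 bases before its start site, and that of Cdkn2a began 99 bases before the upstream one of its 2 start sites. Both windows lie on the minus strand, at chr2:157204535-157204562 for Rbl1 and at chr4:89294701-89294728 for Cdkn2a, and are printed 5′ to 3′ with the motif in capitals.
Rbl1: agaaggcgatTTTCGCGCgctttgtcgc
Cdkn2a: tctgggaagcTTTCCCGCgcgactgggg
The promoters of Cdkn1a, Cdkn1b, Cdkn2b, Cdkn2c and Cdkn2d and the second promoter of Cdkn2a held none of these 4 motifs in this window. A match is a description of the sequence and not a measured binding site.

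Values are TPM, the length-corrected share of a gene among all transcripts scaled to the same total in each library, so the sequencing depth is unknown. Fto was at 52.7 to 73.5 TPM in the 6 shScram libraries and at 5.51 to 7.47 TPM in the 6 shFto libraries, a difference of -3.11, -3.02 and -3.15 in log2(TPM + 1) at Pre, MCE and Diff (limma adjusted p = 4.1e-06, 2.42e-06 and 8.89e-07). Replicate 1 of shScram Diff is a control by its title and a knockdown by its treatment entry. The title was followed, and this library held 73.5 TPM of Fto. The 8 fibroblast markers summed to 6933 TPM or more in every library. All of them passed the filter, as did the 8 adipocyte and 6 cycling-cell markers, so passing alone does not identify a cell type. Summed endothelial markers reached 1.15 TPM at most, with Kdr at 0 in every library, and summed epithelial markers reached 1.12 TPM at most. Of 5 macrophage markers Adgre1 was at 0 in every library, but Lyz2 and Cd68 passed the filter, and the 5 summed to 9.49 and 10.98 TPM in shFto Pre, 5.15 and 8.39 TPM in shScram Pre and 1.62 to 3.62 TPM in the later groups. Their part in the results at Pre was not tested. The 8 adipocyte markers summed to 1431 and 1448 TPM in shScram Diff and to 446 and 480 TPM in shFto Diff. The 2 libraries of shScram Pre differed more than any other pair. The correlation of their log2(TPM + 1) values across genes was 0.939, against 0.990 to 0.993 in the other groups, and genes with more GC in their transcripts were lower in replicate 1 (Spearman's rho of -0.69 over 15928 genes, against -0.20 to 0.36 in the other pairs).

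The members followed that gap. Cdkn2a, with a GC content of 60.2%, was lower in replicate 1, with a difference to replicate 2 of -1.98 in log2(TPM + 1), and Cdkn2d differed by -1.63, Cdkn2c by -0.85 and Cdkn1a and Cdkn2b by -0.81 each. The 3 members lowest in GC content, Cdkn1b (43.1%), Rbl1 (42.1%) and Rb1 (41.2%), were higher in replicate 1 by 0.37, 0.38 and 0.79. In the other 5 groups the replicates of a member differed by 0.43 at most. Results that rest on shScram Pre are therefore given with and without this replicate, and without it the remaining library is assumed to vary like the other groups.

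**Figure D1:**
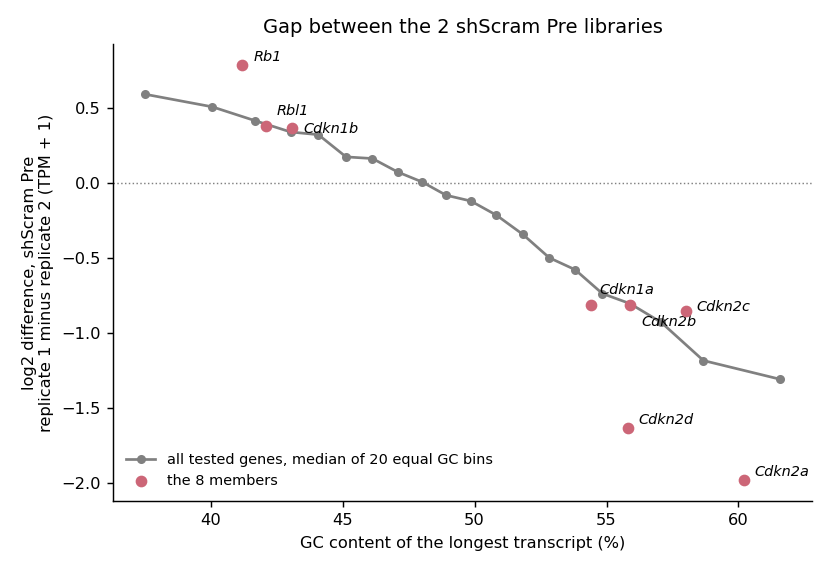
Difference in log2(TPM + 1) between replicate 1 and replicate 2 of shScram Pre against the GC content of the longest transcript, for the 8 members (red) and as medians over 20 equal bins of the tested genes (grey). The 5 members richest in GC lie below 0, with Cdkn2a at -1.98, and the other 3 lie above 0.

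Cdkn1a, on chromosome 17 from 29090976 to 29100727 of GRCm38 (all coordinates are from GENCODE release M21), encodes p21, an inhibitor induced by p53. Its level was 115 and 202 TPM in shScram Pre, 309 and 314 TPM in shFto Pre, 133 and 139 TPM in shScram MCE, 140 and 132 TPM in shFto MCE, 171.5 and 169.6 TPM in shScram Diff, and 208 and 213 TPM in shFto Diff. The shFto preadipocytes stood highest, the shFto Diff libraries came next without overlap, and both lines overlapped at MCE. Cdkn1b, on chromosome 6 from 134920401 to 134925513, encodes p27, which holds resting cells out of the cycle. It varied least of the 8, with 103.5 and 79.6 TPM in shScram Pre, 68.2 and 70.0 TPM in shFto Pre, 81.0 and 78.3 TPM in shScram MCE, 83.4 and 81.8 TPM in shFto MCE, 77.1 and 84.5 TPM in shScram Diff, and 92.2 and 92.1 TPM in shFto Diff. Its highest and lowest group means were 1.33-fold apart, and only shFto Pre, the lowest group, did not overlap its neighbour in the order of group means.

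Cdkn2a and Cdkn2b lie 11645 bases apart on chromosome 4, from 89274471 to 89294653 and from 89306299 to 89311039. The Cdkn2a value is a single value per gene and does not separate p16INK4a from p19ARF, which shields p53 from Mdm2. Cdkn2a was the most abundant member in every library, with 288.5 and 1141 TPM in shScram Pre, 864 and 838 TPM in shFto Pre, 524 and 539 TPM in shScram MCE, 361 and 352 TPM in shFto MCE, 731 and 578.5 TPM in shScram Diff, and 674.5 and 689.6 TPM in shFto Diff. Its mean over the 12 libraries, 632 TPM, lay at percentile 98.6 of the tested genes. Cdkn2b, which encodes the TGF-beta responsive p15, was at 106 and 186 TPM in shScram Pre, 164.5 and 163 TPM in shFto Pre, 103 and 94.0 TPM in shScram MCE, 69.5 and 69.6 TPM in shFto MCE, 126 and 101 TPM in shScram Diff, and 109 and 106 TPM in shFto Diff. Both genes were lowest in shFto MCE, below shScram MCE without overlap, and both shFto Pre libraries were above those of every MCE and Diff group. The shScram Pre pair overlapped shFto Pre and both Diff groups for each gene. Across the 12 libraries, which share their groups and the gap above, their log2(TPM + 1) values correlated with r of 0.84, and with r of 0.97 over the 11 libraries without replicate 1 of shScram Pre.

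Cdkn2c, on chromosome 4 from 109660876 to 109667189, and Cdkn2d, on chromosome 9 from 21288410 to 21291407, encode p18 and p19INK4d, Ink4 proteins that share the CDK4 and CDK6 targets of p15 and p16. Cdkn2c was at 18.6 and 34.2 TPM in shScram Pre, 57.6 and 60.4 TPM in shFto Pre, 56.9 and 55.6 TPM in shScram MCE, 73.4 and 75.7 TPM in shFto MCE, 62.5 and 51.9 TPM in shScram Diff, and 90.1 and 89.4 TPM in shFto Diff. Cdkn2d was at 3.56 and 13.1 TPM in shScram Pre, 20.3 and 19.1 TPM in shFto Pre, 26.5 and 28.6 TPM in shScram MCE, 45.8 and 43.8 TPM in shFto MCE, 17.2 and 15.9 TPM in shScram Diff, and 45.1 and 48.9 TPM in shFto Diff. At each stage both shFto libraries were above both shScram libraries for each of these genes. The share of all tested genes that separate in this way was not counted, here or for the other members. Such separations of 2 libraries from 2 are therefore a description only. The highest group mean, shFto Diff for both, was 3.40-fold the lowest for Cdkn2c and 5.66-fold for Cdkn2d, and the lowest was shScram Pre in each case. The values of the 2 genes correlated with r of 0.94 over the 12 libraries and of 0.86 over 11.

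Rb1, on chromosome 14 from 73183673 to 73325822, and Rbl1, on chromosome 2 from 157145893 to 157204534, had the lowest means, 8.66 and 11.4 TPM. Rb1 overlaps Rcbtb2 and Lpar6 on the other strand, the use of strand in counting is not given in the sources used here, and its values are therefore uncertain. It was at 13.6 and 7.45 TPM in shScram Pre, 7.01 and 8.63 TPM in shFto Pre, 8.03 and 7.51 TPM in shScram MCE, 6.36 and 7.22 TPM in shFto MCE, 9.54 and 10.4 TPM in shScram Diff, and 7.59 and 10.6 TPM in shFto Diff. Its libraries did not overlap in 6 of the 15 pairs of groups, the fewest of the 8 members, a count not made over all tested genes. The 2 lines were separated for Rb1 only at MCE. Rbl1, whose product p107 binds the repressor E2Fs in cycling cells, was at 12.3 and 9.16 TPM in shScram Pre, 10.8 and 11.8 TPM in shFto Pre, 11.9 and 11.3 TPM in shScram MCE, 22.9 and 20.0 TPM in shFto MCE, 5.80 and 5.48 TPM in shScram Diff, and 7.29 and 7.93 TPM in shFto Diff. It was highest in shFto MCE, well apart from the other groups, and lowest in shScram Diff. Of the family members outside the 8, Cdkn1c (p57) was at 0.137 TPM at most and Rbl2 (p130) lay between 16.4 and 33.2 TPM.

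**Figure D2:**
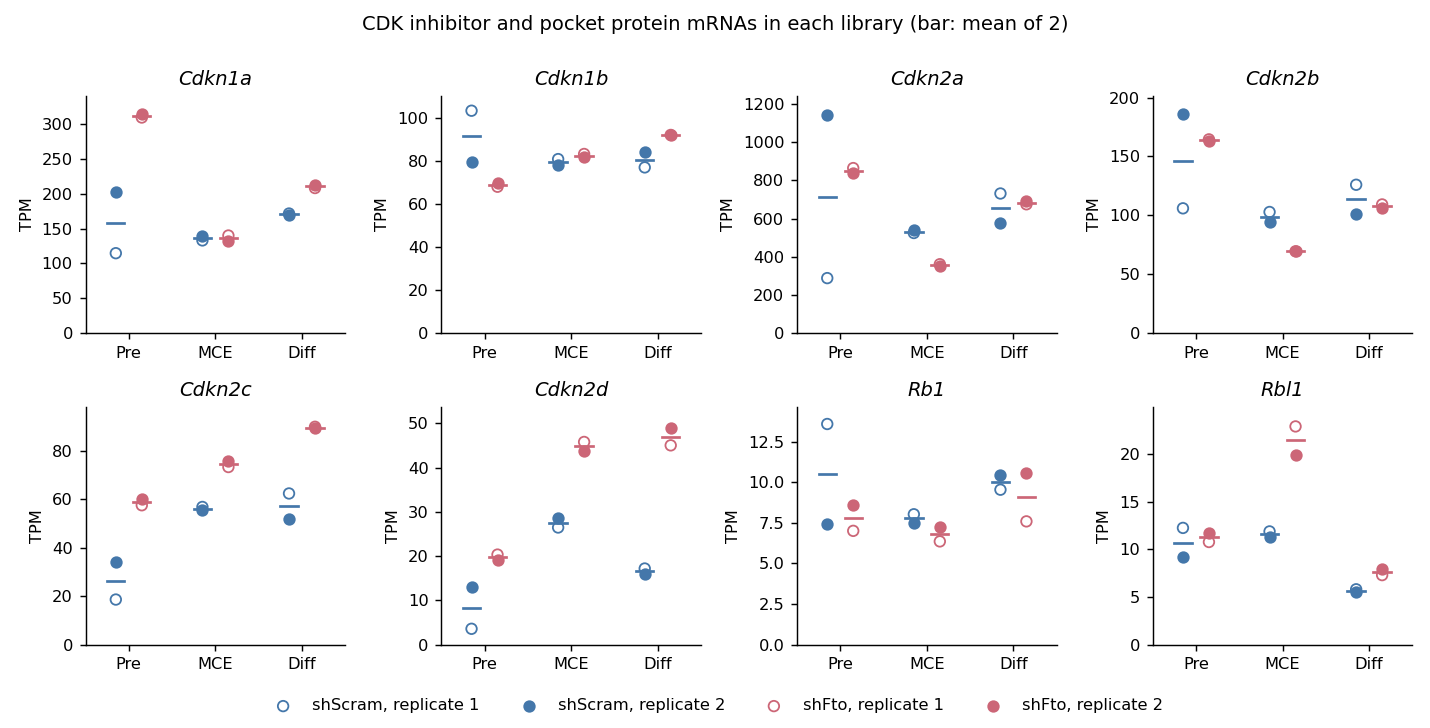
TPM of each member by stage in shScram (blue) and shFto (red), with open circles for replicate 1, filled circles for replicate 2 and a bar at the mean of 2. Cdkn2c and Cdkn2d are higher in shFto at each stage, Rbl1 peaks at 22.9 and 20.0 TPM in shFto MCE, and the 2 shScram Pre libraries lie far apart for Cdkn2a.

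The Ink4 transcripts differed in their proportions between the lines. Cdkn2c and Cdkn2d together made up 5.32% and 3.44% of the summed Ink4 TPM in shScram Pre and 7.05% and 7.36% in shFto Pre. At MCE the share was 11.7% in both shScram libraries and 21.7% and 22.1% in the shFto libraries, and at Diff it was 8.51% and 9.06% against 14.7% and 14.8%. Every shFto library was thus above every shScram library of its stage, and each line had its highest share at MCE. Cdkn2a made up 65.0% to 83.0% of the sum, and the ratio of Cdkn2a to Cdkn2b was 2.72 in replicate 1 of shScram Pre and 5.06 to 6.51 in the other 11 libraries. The summed Ink4 TPM was 417 and 1374 in shScram Pre against 1106 and 1080 in shFto Pre, 711 and 717.5 against 549.9 and 541 at MCE, and 937 and 747.5 against 919 and 934 at Diff. The lines were separated only at MCE, where the control was higher.

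**Figure D3:**
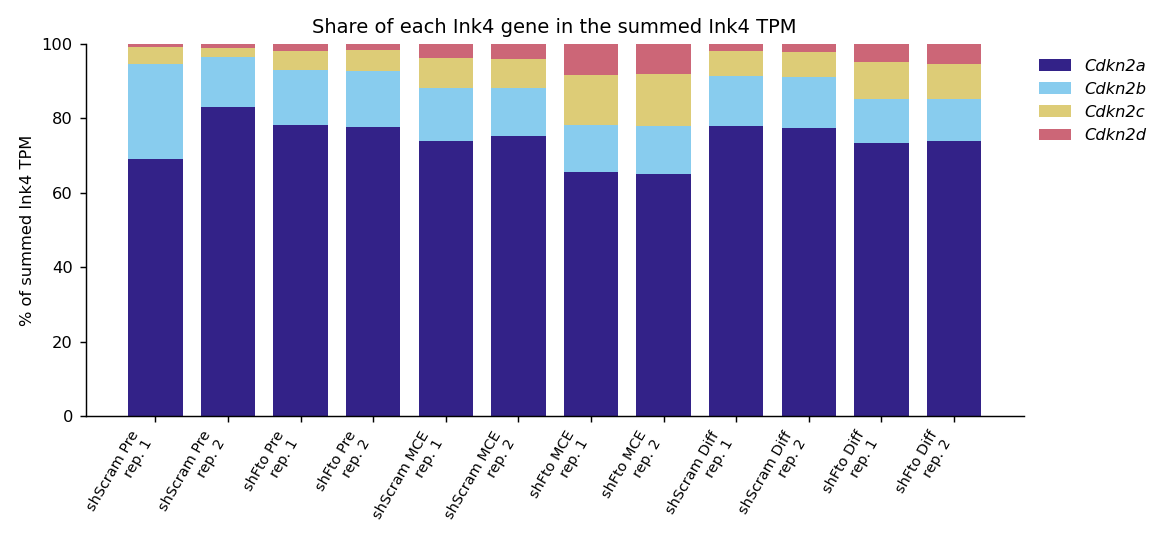
Share of Cdkn2a, Cdkn2b, Cdkn2c and Cdkn2d in the summed TPM of the 4 Ink4 genes, in percent, 1 bar per library. Cdkn2c and Cdkn2d take up more of the bar in shFto than in shScram at each stage, with 21.7% and 22.1% in shFto MCE.

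The knockdown was compared with the control at each stage by limma on log2(TPM + 1), with the spread estimated over all 12 libraries and a Benjamini-Hochberg adjustment over all tested genes. In preadipocytes 3 of the 8 members passed an adjusted p of 0.05, beside 28.2% of all tested genes, and each was higher in shFto cells. Cdkn1a was higher by 1.03 ± 0.22 (SE; limma adjusted p = 0.0115), Cdkn2c by 1.19 ± 0.23 (limma adjusted p = 0.00844) and Cdkn2d by 1.37 ± 0.40 (limma adjusted p = 0.0358). Once replicate 1 of shScram Pre was left out these differences were 0.62 ± 0.07, 0.77 ± 0.11 and 0.56 ± 0.11 (limma adjusted p = 0.000254, 0.000602 and 0.00381), so the direction was the same and the sizes were smaller. The direction of Cdkn2a turned with that library, from 0.57 ± 0.49 (limma adjusted p = 0.386) to -0.42 ± 0.12 (limma adjusted p = 0.0236), and 4 members then passed, beside 29.0% of the genes. Without replicate 2 in its place 7 members passed, beside 62.8% of the genes, and Cdkn2a was 1.56 ± 0.12 higher in shFto cells (limma adjusted p = 1.52e-06). Cdkn1b, Cdkn2b, Rb1 and Rbl1 did not pass with all libraries or without replicate 1. With only the 4 preadipocyte libraries in the fit no member passed and no gene did, and without either shFto Pre library none of the 8 passed (limma adjusted p of 0.0528 to 0.15 for the 3 above). The call of Cdkn2d was also lost without any single library of MCE or Diff, with a limma adjusted p of 0.0575 to 0.0586.

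At MCE only Rbl1 passed, beside 17.8% of the genes, and it was 0.83 ± 0.16 higher in shFto cells (limma adjusted p = 0.00719), a fold of 1.78 on the TPM + 1 scale. The libraries of shScram Pre do not enter this difference, and they do enter the estimate of the spread. Without replicate 1 of shScram Pre, 5 members passed, beside 41.0% of the genes, with the differences themselves as before. Rbl1 then had a limma adjusted p of 0.000269, Cdkn2d was 0.68 ± 0.09 higher (limma adjusted p = 0.00016) and Cdkn2c 0.40 ± 0.09 higher (limma adjusted p = 0.00408). The neighbours Cdkn2a and Cdkn2b were lower in shFto cells, by -0.58 ± 0.10 and -0.49 ± 0.09 (limma adjusted p = 0.000942 and 0.00208). With all 12 libraries the standard errors of these 4 Ink4 differences were larger and none of the 4 passed. The call of Rbl1 was lost without replicate 2 of shScram MCE (limma adjusted p = 0.055) or replicate 1 of shFto MCE (0.0753). Cdkn1a, at 132 to 140 TPM in all 4 libraries, did not differ beyond the spread at this stage. The interval of its difference ran from -0.49 to 0.49 with all 12 libraries and from -0.14 to 0.13 without replicate 1 of shScram Pre.

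At Diff only Cdkn2d passed, beside 21.2% of the genes, with a difference of 1.45 ± 0.40 (limma adjusted p = 0.0324), a fold of 2.74 on the TPM + 1 scale. Leaving out any 1 of the 10 libraries other than those of shScram Pre took its adjusted p above 0.05, up to 0.152, with a difference of 1.39 to 1.51. Without replicate 1 of shScram Pre its limma adjusted p was 1.03e-06, and 5 members passed, all higher in shFto cells, beside 45.7% of the genes. Cdkn2c was then 0.65 ± 0.09 higher (limma adjusted p = 0.000194), Rbl1 0.37 ± 0.12 higher (limma adjusted p = 0.0229), Cdkn1a 0.30 ± 0.06 higher (limma adjusted p = 0.00238) and Cdkn1b 0.19 ± 0.07 higher (limma adjusted p = 0.0391). At this stage the 6 cycling-cell markers (Mki67, Top2a and others) summed to 140.3 and 150.4 TPM in the control libraries and reached 251 and 271 TPM with the knockdown (5 of 6 passed as higher), the adipocyte markers were lower in shFto as given above, and the part of either in these results was not tested. In bulk RNA fewer cells of a type and less RNA per cell cannot be told apart.

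**Figure D4:**
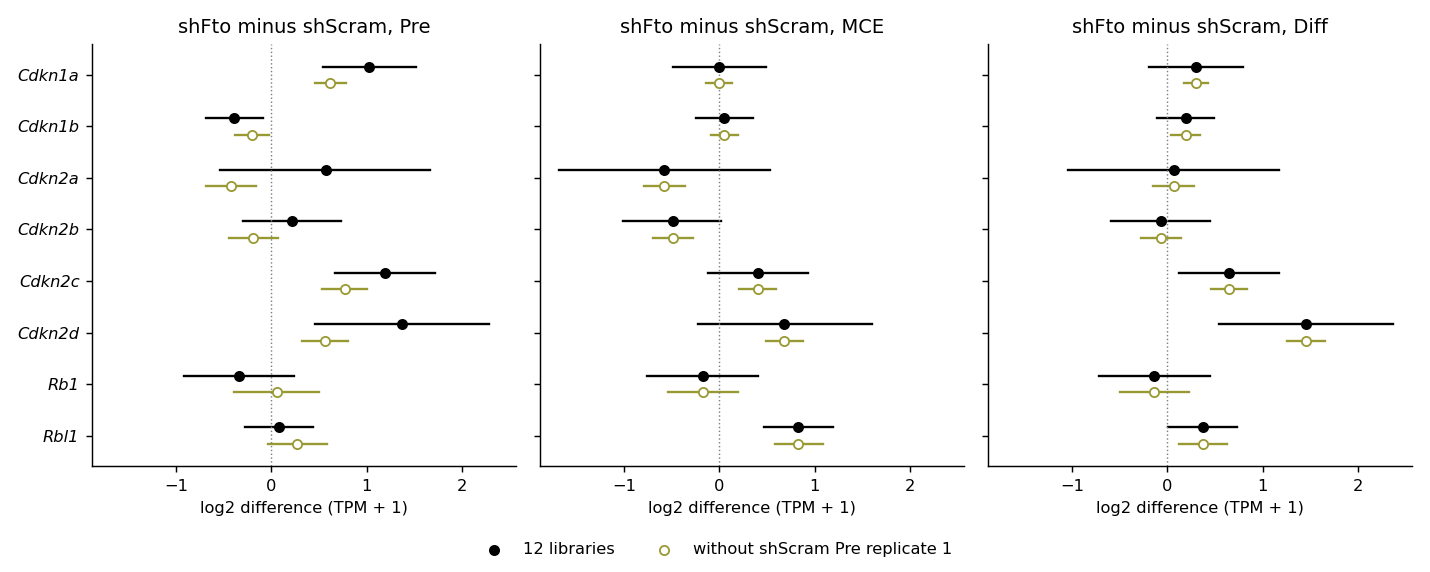
Difference of shFto minus shScram in log2(TPM + 1) at Pre, MCE and Diff for each member, with 95% confidence intervals, from all 12 libraries (black) and without replicate 1 of shScram Pre (olive, open points). The points at MCE and Diff coincide between the fits and their intervals narrow, while at Pre the point of Cdkn2a moves from 0.57 to -0.42.

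Averaged over the 3 stages, 4 members were higher in shFto cells and none was lower, beside 42.8% of genes called in either direction and 24.5% called higher. Cdkn2d was higher by 1.17 ± 0.23 (limma adjusted p = 0.00404), Cdkn2c by 0.75 ± 0.13 (limma adjusted p = 0.00239), Cdkn1a by 0.44 ± 0.12 (limma adjusted p = 0.0201) and Rbl1 by 0.43 ± 0.09 (limma adjusted p = 0.00584). All 4 passed again without replicate 1 of shScram Pre, with differences of 0.90, 0.61, 0.31 and 0.49. Cdkn2a and Cdkn2b then passed as lower in shFto cells, by -0.31 ± 0.06 and -0.25 ± 0.06 (limma adjusted p = 0.0015 and 0.00474), which made 6 members beside 56.6% of the genes. Leaving out replicate 2 in its place gave 7 members beside 67.4% of the genes, with Cdkn2a higher by 0.35 ± 0.06 (limma adjusted p = 0.000463), Cdkn2b at 0.02 ± 0.06, and Rb1 and Cdkn1b lower by -0.35 ± 0.10 and -0.11 ± 0.04 (limma adjusted p = 0.0111 and 0.033). Cdkn2d, Cdkn2c, Cdkn1a and Rbl1 were higher in all 3 fits. The direction of Cdkn2a depended on the control library, and Cdkn2b ran from -0.25 to 0.02. Over all alternatives the smallest averaged differences of Cdkn2d, Cdkn2c, Cdkn1a and Rbl1 were 0.90, 0.38, 0.24 and 0.30. The single-stage differences of Cdkn2c came down to 0.45 at Pre, 0.25 at MCE and 0.44 at Diff. The call of Cdkn1a was lost without replicate 1 of shScram MCE, replicate 1 of shFto MCE, replicate 2 of shScram Diff or replicate 2 of shFto Diff (limma adjusted p of 0.0512 to 0.0556), and that of Rbl1 after quantile normalization (0.30, limma adjusted p = 0.0657). Neither Rb1 nor Cdkn1b passed with all libraries or without replicate 1, and their intervals with all libraries ran from -0.55 to 0.12 and from -0.22 to 0.12.

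From Pre to MCE the control cells raised Cdkn2c and Cdkn2d. Their cycling-cell markers summed to 251 and 278 TPM in shScram Pre and to 717 and 762 TPM in shScram MCE, and the part of these was not tested. In shScram cells 2 members passed, beside 39.1% of the genes, Cdkn2c with a rise of 1.12 ± 0.23 (limma adjusted p = 0.00568) and Cdkn2d with a rise of 1.83 ± 0.40 (limma adjusted p = 0.0076). The rises without replicate 1 of shScram Pre were 0.70 ± 0.11 and 1.02 ± 0.11, and Cdkn2a, Cdkn2b and Cdkn1a passed as lower at MCE, by -1.10 ± 0.12, -0.91 ± 0.12 and -0.57 ± 0.07 (limma adjusted p = 4.53e-05, 0.000137 and 0.000153), 5 members beside 48.1% of the genes. Without replicate 2 in its place, Cdkn2a was 0.88 higher and Cdkn1a 0.24 higher at MCE (limma adjusted p = 8.85e-05 and 0.0143), in a fit that called 64.7% of the genes. The direction of these genes in control cells depends on which preadipocyte library is used. With all libraries neither passed, and both turned from lower to higher under median-ratio scaling (0.10 for Cdkn2a and 0.04 for Cdkn1a). With only the 4 libraries of this comparison the calls of Cdkn2c and Cdkn2d were lost (limma adjusted p = 0.149 and 0.16), and that of Cdkn2d was lost without replicate 2 of shScram MCE (limma adjusted p = 0.0504).

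The shFto cells, whose preadipocyte libraries lay close together, gave 3 calls from Pre to MCE, beside 28.7% of the genes. Cdkn1a fell by 1.19 ± 0.22 (limma adjusted p = 0.00337) and Cdkn2b by 1.22 ± 0.23 (limma adjusted p = 0.0039), while Rbl1 rose by 0.87 ± 0.16 (limma adjusted p = 0.00352). Without replicate 1 of shScram Pre, which enters here only through the spread, 7 members passed, beside 51.1% of the genes. Cdkn2a was then lower at MCE by -1.25 ± 0.10 and Cdkn2d higher by 1.14 ± 0.09 (limma adjusted p = 2.81e-06 and 2.56e-06), Cdkn2c higher by 0.33 ± 0.09 and Cdkn1b higher by 0.25 ± 0.07 (limma adjusted p = 0.00855 and 0.00867), and Rb1 alone did not pass. A fit on the 4 libraries of this comparison also gave 7 members, beside 50.1% of the genes. The cycling-cell markers summed to 213 and 229 TPM in shFto Pre and to 592 and 616 TPM in shFto MCE, and their part in these results was not tested.

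From MCE to Diff Rbl1 fell in both lines. It fell by 0.92 ± 0.16 in shScram cells (limma adjusted p = 0.00398), where it was the only member called beside 25.2% of the genes, and by 1.38 ± 0.16 in shFto cells (limma adjusted p = 0.000488), where it was again the only one beside 26.7%. Both calls were kept without replicate 1 of shScram Pre (limma adjusted p = 0.00014 and 8.63e-06). In that fit 4 members passed in shScram cells, beside 52.0% of the genes, with Cdkn1a 0.33 ± 0.06 and Cdkn2a 0.29 ± 0.10 higher and Cdkn2d -0.70 ± 0.09 lower at Diff (limma adjusted p = 0.00144, 0.0291 and 0.000133). In shFto cells 5 passed, beside 50.9% of the genes, with Cdkn2a 0.93 ± 0.10, Cdkn1a 0.63 ± 0.06, Cdkn2b 0.62 ± 0.09 and Cdkn2c 0.26 ± 0.09 higher (limma adjusted p = 3.49e-05, 2.06e-05, 0.000412 and 0.0267). Cdkn2d, at 45.8 and 43.8 TPM at MCE, was at 45.1 and 48.9 TPM in shFto Diff, where it did not pass in that fit (0.07 ± 0.09).

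**Figure D5:**
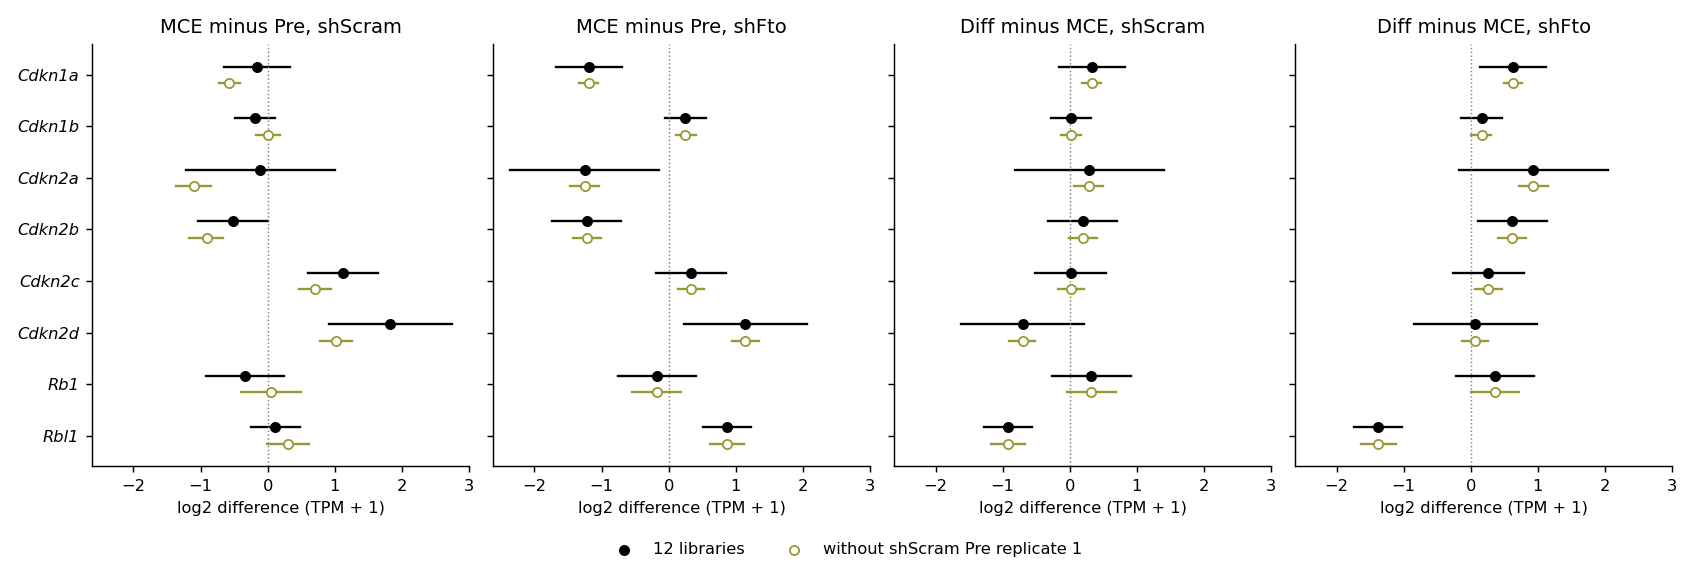
Differences between successive stages in log2(TPM + 1) within each line, with 95% confidence intervals, from all 12 libraries (black) and without replicate 1 of shScram Pre (olive, open points). Rbl1 lies below 0 from MCE to Diff in both lines, at -0.92 and -1.38, and Cdkn1a and Cdkn2b lie near -1.2 from Pre to MCE in shFto.

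The median over all tested genes was itself moved between the stages, by -0.17 and -0.18 from Pre to MCE and by 0.23 and 0.17 from MCE to Diff in shScram and shFto. Of the genes called, 31.1% and 30.6% were higher at MCE than at Pre and 79.3% and 75.7% were higher at Diff than at MCE, against 48.1%, 49.9%, 50.8% and 49.6% after quantile normalization. The falls of Cdkn1a and Cdkn2b and the rises of Cdkn2c, Cdkn2d and Rbl1 called with all libraries are larger than these shifts. Smaller rises from MCE to Diff that passed only without replicate 1 were not clear of them. Over the alternatives Cdkn1a and Cdkn2a in shScram cells came down to 0.07 and 0.04, and Cdkn2c in shFto cells to 0.03.

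Whether the effect of the knockdown differed between stages was tested as an interaction. None of the 8 members passed for MCE against Pre, for Diff against MCE or for Diff against Pre, beside 5.11%, 2.49% and 7.67% of the genes, and 4, 0 and 2 members had an unadjusted p under 0.05. Without replicate 1 of shScram Pre, Cdkn1a passed in all 3, since its difference was smaller at MCE than at Pre by -0.62 ± 0.09, larger at Diff than at MCE by 0.30 ± 0.08 and smaller at Diff than at Pre by -0.32 ± 0.09 (limma adjusted p = 0.00204, 0.0358 and 0.0432). It was the only member for MCE against Pre, beside 14.1% of the genes. For Diff against MCE, 3 members passed, beside 17.1% of the genes, with Cdkn2d larger by 0.77 ± 0.12 and Cdkn2a by 0.64 ± 0.14 (limma adjusted p = 0.00276 and 0.0113). For Diff against Pre, 3 passed, beside 17.8% of the genes, with Cdkn2d larger by 0.89 ± 0.14 and Cdkn1b by 0.39 ± 0.10 (limma adjusted p = 0.00189 and 0.0284). Without replicate 2 in its place, 7 members passed for MCE against Pre, beside 52.5% of the genes, and 7 for Diff against Pre, beside 51.0%. The value of Cdkn2d for Diff against Pre turned to -0.73 (limma adjusted p = 0.00159).

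The partners of these inhibitors moved in both directions. Of 10 cyclins and kinases that they bind, 2 were higher and 3 lower in shFto preadipocytes, 3 higher and 1 lower at MCE, and 2 higher and 2 lower at Diff. The counts of this and the following lists stand beside 28.2%, 17.8% and 21.2% of all tested genes called at Pre, MCE and Diff. Without replicate 1 of shScram Pre these shares were 29.0%, 41.0% and 45.7%. Ccne1, the E-type cyclin that works with Cdk2, was higher by 1.63 ± 0.15 at MCE (limma adjusted p = 0.000133) and by 1.07 ± 0.15 at Diff, and Ccnd1, a D-type cyclin that binds CDK4 and CDK6, was lower by -1.55 ± 0.16 at MCE (limma adjusted p = 0.000271) and -1.24 ± 0.16 at Diff. Ccnd3, at 21.3 and 144 TPM in shScram Pre and 304 and 281 TPM in shFto Pre, was higher by 2.37 ± 0.65 (limma adjusted p = 0.0289), and by 1.02 ± 0.10 without replicate 1 of shScram Pre (limma adjusted p = 8.13e-05). Of 10 E2F and DP factors, 3 were higher at Pre, 2 higher and 1 lower at MCE and 2 higher at Diff. E2f8, an atypical repressor E2F, was among those called at each stage, with 1.24 ± 0.14, 1.29 ± 0.14 and 1.61 ± 0.14 (limma adjusted p = 0.000668, 0.000348 and 7.54e-05). Of the 5 MuvB subunits, with which the pocket proteins p107 and p130 form the DREAM repressor, only Lin37 passed, higher by 0.90 ± 0.18 at Pre (limma adjusted p = 0.00925). Rbl2 passed at none of the 3 stages. With replicate 1 of shScram Pre left out, the cyclins and kinases gave 2 higher and 4 lower at Pre, 5 and 2 at MCE and 5 and 3 at Diff, the E2F and DP factors 3 and 0, 6 and 1, and 5 and 2, and the MuvB subunits 2, 4 and 0 higher with 0 lower.

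Genes of DNA synthesis that E2F factors drive were higher in shFto cells at MCE, the stage at which Rbl1 was higher. Of 15 such genes 10 were higher and 0 lower, with a median difference of 0.80, while 2 were higher and 4 lower at Pre (median 0.00) and 4 were higher and 0 lower at Diff (median 0.26). The medians of all tested genes were 0.05, 0.08 and 0.03 at MCE, Pre and Diff. Cdc6, a licensing factor, was at 4.52 and 5.41 TPM in shScram MCE and at 17.8 and 16.9 TPM in shFto MCE (1.63 ± 0.21, limma adjusted p = 0.000957), and Rrm2, a subunit of ribonucleotide reductase, was at 56.4 and 57.4 TPM against 169 and 161 TPM (1.52 ± 0.17, limma adjusted p = 0.000454). The third of the largest differences was that of Mcm5, a helicase subunit (1.16 ± 0.21, limma adjusted p = 0.00547). The counts without replicate 1 of shScram Pre were 15 higher at MCE, 1 higher and 4 lower at Pre, and 7 higher and 1 lower at Diff. Of the 6 cycling-cell markers 0 were higher and 1 was lower at MCE, and without replicate 1 of shScram Pre 1 was higher (Bub1, 0.41 ± 0.10) and 2 were lower (Top2a, -0.41 ± 0.07, and Ccnb1, -0.62 ± 0.09; limma adjusted p = 0.0103, 0.00168 and 0.000369). Their sums at MCE were 717 and 762 TPM in the control libraries against 592 and 616 TPM. Top2a alone was at 380 to 413 TPM and 293 to 305 TPM. The part of these markers in the results was not tested.

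Of the 7 genes measured for p27 turnover, 1 was higher and 2 lower at Pre, 1 was higher at MCE and 2 were higher at Diff. Skp2, the ubiquitin ligase subunit that recognises p27, was higher by 0.81 ± 0.17 at MCE and by 0.75 ± 0.17 at Diff (limma adjusted p = 0.0127 and 0.016). Of 15 genes that comprise p53 and targets of it, 4 were higher and 2 lower at Pre, where Cdkn1a was also higher. The list median was 1.03 with all libraries, beside 0.08 over all tested genes. It depended on replicate 1 of shScram Pre, without which the middle of the 15 values was 0.08. Gadd45a, a growth arrest gene, was higher by 1.88 ± 0.13 (limma adjusted p = 7e-05), Phlda3 by 2.03 ± 0.62 (limma adjusted p = 0.041) and Btg2, an antiproliferative gene, by 1.40 ± 0.27 (limma adjusted p = 0.0077). These differences were 1.79 ± 0.12, 0.74 ± 0.09 and 0.98 ± 0.19 without replicate 1 of shScram Pre, where Phlda3 was at 28.75 TPM against 177 TPM in replicate 2 (limma adjusted p = 1.01e-05, 0.000353 and 0.00467). Other targets went the other way. Sesn1 was at 23.27 and 22.15 TPM in shScram Pre and at 11.35 and 10.89 TPM in shFto Pre. In the fit without replicate 1 of shScram Pre the targets Sesn1, Trp53inp1 and Zmat3 were lower at Pre, by -0.93 ± 0.11, -0.83 ± 0.17 and -0.35 ± 0.11. Trp53 itself was then lower by -0.24 ± 0.07 at Pre and higher by 0.29 ± 0.06 at MCE. With all libraries Trp53 did not pass at any stage. Of its targets 1 was higher and 3 lower at MCE with all libraries, and at Diff 2 were higher and 3 lower. Phlda3, higher in shFto cells at Pre, was at 353 and 381 TPM in shScram MCE and at 142 and 145 TPM in shFto MCE. Of 7 tested Polycomb genes, whose products repress the locus of Cdkn2a and Cdkn2b, 1 was higher and 2 lower at Pre, 1 was lower at MCE and 0 passed at Diff. With replicate 1 of shScram Pre left out, the p27 turnover genes gave 1 higher and 2 lower at Pre and 2 and 2 at both later stages, p53 and its targets 5 and 4, 5 and 4, and 6 and 4, and the Polycomb genes 0 and 2, 1 and 1, and 1 and 2. Suz12 was at 57.2 and 41.2 TPM in shScram Pre and 15.05 and 19.6 TPM in shFto Pre, lower by -1.45 ± 0.18 (limma adjusted p = 0.00122), and lower by -0.61 ± 0.18 at MCE (limma adjusted p = 0.0474). Mtap, the gene next to Cdkn2a, was at 55.6 to 131.8 TPM and passed at none of the 3 stages, though lower on average over them by -0.33 ± 0.09 (limma adjusted p = 0.0198). Without replicate 1 of shScram Pre it passed as lower at MCE (-0.27 ± 0.09) and Diff (-0.25 ± 0.09), with a limma adjusted p of 0.0331 and 0.0391.

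The genes whose pattern was most like that of a member were sought by Pearson's r of log2(TPM + 1) over the 12 libraries, among 10798 genes with a mean of at least 5 TPM. For Rbl1 they were Fbxo5, Mcm6 and Cep128, with r of 0.970 to 0.975, and Mcm6 is one of the 15 E2F target genes above. For Cdkn1a they were Adra1d, Pcdh1 and Dbndd2 (0.969 to 0.973), for Cdkn2a Zswim8, Usp20 and Abcd4 (0.970 to 0.975), and for Cdkn2b Ifi35, Uap1l1 and Tacc2 (0.961 to 0.964). For Cdkn2c they were Nod1, Eif3f and Col4a2 (0.985 to 0.986), for Cdkn2d Syt12, Nav1 and Tnfrsf1a (0.970 to 0.975), for Cdkn1b Casp12, Rnf19a and Pak3 (0.917 to 0.947), and for Rb1 Rab14, Zfp90 and Calu (0.935 to 0.945). The 12 points share 6 groups and, at shScram Pre, the gap with GC content, and over the 11 libraries without replicate 1 the r of these genes lay between 0.879 and 0.979.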

How the data were processed

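The paper describes its RNA-seq of 3T3-L1 cells as the sequencing of fragmented total RNA, the input of an m6A experiment. That description is given for rhein-treated cells and does not name the hairpin cells used here. The deposited values are TPM, which the authors made per gene with StringTie 2.1.4 and the annotation of Ensembl release 102, after trimming (Trim Galore 0.6.5) and alignment by HISAT2 2.1.0, for which the build was GRCm38. Their differential test, DESeq2 1.30.1 on counts, was not repeated, since TPM are not counts and keep no depth. Groups follow the titles of 12 libraries, 2 in each of 6 groups. From TPM, log2(TPM + 1) was computed for the 15968 genes that reached 1 TPM in 2 libraries or more, and tested with limma 3.58.1 in R 4.3.3 (a mean per group, 6 residual degrees of freedom, eBayes with a trend, two-sided, Benjamini-Hochberg adjustment over all tested genes). The scale understates changes of low values. A gene passed at an adjusted p under 0.05. The tests were checked on simulated data. Other steps used Python 3.11.15.

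The members and lists were chosen with earlier results of these data known. Named genes are the 8 members, the 3 genes most correlated with each, up to 3 of the largest called differences per list in the comparison described, and Cdkn1c, Rbl2 and Mtap. Trp53, Mdm2, Sesn1, Trp53inp1, Zmat3, Bub1, Top2a, Ccnb1, Lyz2 and Cd68 were named after their values were seen. Alternatives were a pseudocount of 0.1, no filter, a mean TPM of 5, quantile and median-ratio scaling, only the libraries of a comparison, array weights, the replicate number as a block and each library left out. A GC correction was added after seeing the data.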

Additional observations from a re-analysis of the deposited data

How the results depend on the processing

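The 48 member differences followed here were those that passed with all libraries or without replicate 1 of shScram Pre. They were thus chosen by their result from all members and comparisons, and 16 of 48 is not a rate of calls. Of the 48, 16 passed with all libraries and 9 of those calls were lost under at least 1 of 21 alternatives each. The causes were not tested. Results at Pre rest on 2 control libraries that stand apart, and the TPM give no depth from which to judge the low values of Rb1 and Rbl1. Counts of members called follow, in the order knockdown at Pre, MCE and Diff, where all libraries gave 3, 1 and 1. Array weights gave 1, 5 and 5 (beside 2.64%, 44% and 45.4% of all genes), the libraries of the comparison alone 0, 5 and 3 (0%, 37% and 41.4%), and the GC correction, chosen after seeing the data, 5, 3 and 4 (32%, 28.6% and 32.5%). At Diff quantile and median-ratio scaling gave 2 (22.8% and 21.1%), and a pseudocount of 0.1 and no filter gave 0 (18.8% and 11.3%). From Pre to MCE in shScram the comparison's own libraries gave 0 (3.16%) and the GC correction 6 (43.9%), against 2. From MCE to Diff in shScram array weights, own libraries and GC correction each gave 3 (47.5%, 40.4% and 32.7%), against 1. From Pre to MCE in shFto each of these gave 7 (53.7%, 50.1% and 38.1%), against 3, and from MCE to Diff in shFto array weights gave 7, own libraries 6, GC correction 4 and quantile normalization 2 (58.1%, 54.4%, 39.3% and 22.4%), against 1. For the knockdown at Diff against MCE array weights gave 2 (18.5%) and own libraries 3 (16.9%), and the GC correction gave 1 for MCE against Pre (10.2%) and 1 for Diff against Pre (15.1%), against 0. The averaged knockdown could not be fitted on its own libraries, which are all 12. Leaving out 1 library gave 0 to 7 members at Pre, 0 to 5 at MCE, 0 to 5 at Diff, 3 to 7 on average, 1 to 6 and 1 to 4 for the stages in shScram, 3 to 7 and 1 to 5 in shFto, and 0 to 7, 0 to 3 and 0 to 7 for the 3 differences between stages.

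The direction of Cdkn2a at Pre turned with the GC correction (-0.31) and ran from -0.42 to 1.56 over the left-out libraries. Averaged over stages Cdkn2a turned with quantile normalization (-0.02), median-ratio scaling (-0.04) and the GC correction (-0.43), and ran from -0.31 to 0.35, and Cdkn2b ran from -0.25 to 0.02. From Pre to MCE in shScram median-ratio scaling gave 0.04 for Cdkn1a and 0.10 for Cdkn2a, with ranges of -0.57 to 0.24 and -1.10 to 0.88. For Diff against Pre the value of Cdkn2d was -0.01 with a pseudocount of 0.1 and ran from -0.73 to 0.89. Cdkn2d at Pre had an adjusted p (limma) of 0.0929 with no filter and 0.0728 with array weights, and Cdkn2c 0.0516 with array weights. Fto at Pre was lower by -3.11 in its own 4 libraries, with a limma adjusted p of 0.109. The number of genes called at Pre ran from 0 with own libraries to 10025 without replicate 2 of shScram Pre, against 4510.

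Deviations of same-numbered libraries correlated with r of -0.29 to 0.17 over the pairs of groups. These values cannot settle whether same-numbered libraries shared a culture or a batch, since gaps with GC content also enter them. With the replicate number as a block, members called were 3, 1, 1 and 4 for the knockdown at Pre, MCE, Diff and on average, 2, 1, 3 and 1 for the stages and 0 for the differences between stages, no printed call changed, and 3818 genes passed at Pre against 4510.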

Other observations

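Mdm2, the ubiquitin ligase that p19ARF holds from p53, was among the most abundant transcripts of these cells. It was chosen after its values were seen. It lay between 3260 and 7656 TPM in the 12 libraries, rank 13 of the tested genes by its mean of 4839 TPM, and Trp53 lay between 93.65 and 236.9 TPM, at percentile 93.9 of the tested genes.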
